A study of Mus musculus with 34 samples.

Results

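The colony-stimulating factor 1 receptor (CSF1R), its ligands, the transcription factors that maintain myeloid cells and 3 neighbouring cytokine pathway genes were examined as a set of 9 genes among the 16389 in the deposited expression table. They were chosen by name, with earlier results of these data known: the ligand genes Csf1 and Il34, the receptor gene Csf1r, the transcription factor genes Spi1, Irf8 and Runx1, the transforming growth factor-β genes Tgfb1 and Tgfbr1, and Csf2ra, which encodes the α chain of the granulocyte-macrophage colony-stimulating factor (GM-CSF) receptor. All 9 were present in the table, and 8 of the 9 were tested. Runx1 did not reach the minimum of 1 FPKM (fragments per kilobase of exon, scaled to the number of fragments counted in the library) in 3 libraries and is given by its values alone.

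The series holds 34 RNA-sequencing libraries, each from 1 brain region of 1 male C57BL/6 mouse, and several regions came from the same animals. WT CON mice received no irradiation, no transplant and no inhibitor, and carry the label vehicle. GFP-BM CON mice received 1000 cGy of whole-body irradiation, head included, and bone marrow from CAG-EGFP donors, in which a ubiquitous promoter drives the green fluorescent protein in donor cells of every type. GFP-BM REPOP mice received the same irradiation and transplant and, 3.5 months later, the CSF1R inhibitor PLX3397 in chow at 600 ppm for 14 days. PLX3397 was then withdrawn and tissue was taken after 6 months of recovery, so no group was under the inhibitor at collection. Mice were 4 months old at irradiation. Cortex had 3 WT CON libraries and 4 of each transplanted group, hippocampus had 4 of every group, and thalamus, dissected together with striatum and called thalamus here, had 3 of GFP-BM CON and 4 of each other group. WT CON differed from both other groups in irradiation and transplant at once, and these cannot be told apart.

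CSF1R is a receptor tyrosine kinase of mononuclear phagocytes, and microglia depend on its signal for their survival. It has a pair of ligands, IL-34, made in the brain chiefly by neurons, and CSF1, made chiefly by glia. PU.1, encoded by Spi1, is the master factor of the myeloid lineage and acts at the Csf1r gene, IRF8 partners with PU.1 in microglia and macrophages, and RUNX1 is needed earlier, when blood and microglial progenitors form. TGF-β1 acting through its receptor kinase TGFBR1 maintains the mature microglial programme, and GM-CSF promotes the growth and activation of myeloid cells that carry its receptor.

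Whole-tissue reads cover all brain cells, so fewer myeloid cells and less RNA per myeloid cell cannot be told apart. Reads assigned to genes ranged from 17085018 to 26010509 per library, with a median of 21367227. Summed monocyte-derived macrophage genes and homeostatic microglia genes separated the groups in cortex and thalamus, but overlapped between groups in hippocampus. The summed level of 10 monocyte-derived macrophage genes, which the study named on these samples and which are no independent evidence, was 64.8 to 104 FPKM in GFP-BM REPOP cortex, 13.7 to 22.1 in GFP-BM CON and 8.45 to 10.3 in WT CON. The 12 homeostatic microglia genes, all of them detected, summed to 79.6 to 91.4, 97.5 to 107 and 109 to 129 FPKM in the same order. In hippocampus the macrophage genes summed to 51.0 to 139 FPKM in GFP-BM REPOP, 15.6 to 74.6 in GFP-BM CON and 10.5 to 24.2 in WT CON. The homeostatic genes there summed to 93.5 to 126, 112 to 138 and 122 to 164 FPKM in the same order. Border macrophage genes were low, with a sum of at most 7.99 FPKM over the 7 of 8 genes listed, the 2 of 6 neutrophil genes listed summed to at most 3.39 FPKM, and 0 of 6 lymphocyte genes were in the table used here. Markers of choroid plexus and of other regions varied between hippocampus libraries, and the cause was not tested. Choroid plexus genes summed to between 24.0 and 6491 FPKM among WT CON hippocampus libraries and reached 6361 in GFP-BM CON. Cortex genes ran higher in GFP-BM REPOP hippocampus (85.2 to 221 FPKM) than in WT CON hippocampus (76.8 to 85.3). In addition, 1 GFP-BM REPOP hippocampus library held 1231 FPKM of striatum genes. Marker sums differed in the other regions too. Neuron genes summed to 457 to 1213 FPKM in WT CON thalamus, 1274 to 1367 in GFP-BM CON and 1228 to 1384 in GFP-BM REPOP. Thalamus genes summed to 24.7 to 35.8 FPKM in WT CON cortex, 26.9 to 29.7 in GFP-BM CON and 31.4 to 66.7 in GFP-BM REPOP. The causes of these differences were not tested either. Libraries also differed in the level of GC-rich genes. A GC measure, the median log2 level of the GC-richest 10% of genes minus that of the GC-poorest 10%, ran from 0.41 to 3.65, and WT CON hippocampus replicate 1 (3.39) and WT CON thalamus replicate 2 (3.65) stood apart from the rest.

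Because PU.1, IRF8, RUNX1 and a TGF-β receptor are encoded by genes of the set, the promoters of the set were searched for the motifs these pathways use. RefSeq promoter sequences (GRCm38.p6, 250 bases before to 50 bases after each start) were at hand for 9 starts of 6 of the genes, Csf1, Tgfb1, Tgfbr1, Irf8, Runx1 and Csf2ra. Each was searched on both strands for the PU.1 core GAGGAA (present in 28.3% of all 32851 promoters in the table), the ETS and IRF composite element (2.72%), the RUNX motif TGTGGT (16.8%) and the SMAD core CAGAC (49.6%). The Csf2ra start is shown because 2 adjoining GAGGAA matches, which overlap no other motif searched, lie within its last 14 upstream bases, and the main Irf8 start is shown because none of the 4 motifs was found in its window. The capitals mark the GAGGAA matches, and both sequences read 5′ to 3′ on the strand of the gene.
Csf2ra, last 30 bases before the start, chr19:61228419-61228448, minus strand: ttcccaacctgcagatGAGGAAGAGGAAgc
Irf8, 250 bases before the start, chr8:120736108-120736357, plus strand: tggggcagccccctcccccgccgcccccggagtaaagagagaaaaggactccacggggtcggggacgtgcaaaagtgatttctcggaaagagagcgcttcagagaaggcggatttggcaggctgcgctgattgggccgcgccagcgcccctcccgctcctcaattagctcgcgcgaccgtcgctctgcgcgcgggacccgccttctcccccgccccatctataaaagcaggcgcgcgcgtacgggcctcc
The 30 bases shown for Csf2ra lie inside the span RefSeq gives to the gene, because another of its transcripts starts further upstream. The second Tgfbr1 start held 1 GAGGAA and 1 CAGAC, the second Irf8 start 1 CAGAC, 1 Runx1 start held 1 GAGGAA and the other 2 TGTGGT, the Csf2ra window also held 3 CAGAC after its start, and the Csf1, Tgfb1 and first Tgfbr1 windows held none of the 4. These are letter matches, and nothing here measured binding.

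The 9 genes differed widely in level. FPKM is scaled by gene length, so the levels were set side by side. It is not corrected for GC content, which ran from 41.0% in Tgfbr1 to 58.9% in Spi1 transcripts, so the order of near neighbours is uncertain. Il34 (GRCm38 chr8:110741829-110805949) was the most abundant, with a median of 29.7 FPKM and a range of 14.7 to 38.6. Csf2ra (chr19:61217191-61228461) followed at 18.5 FPKM (10.6 to 25.2) and Csf1r (chr18:61105572-61131139) at 17.5 (10.8 to 35.8). RefSeq and GENCODE give Csf2ra different spans, so its level per length and its place in this order are uncertain. Csf2ra and Csf1r did not separate: Csf2ra was the higher in 18 of 34 libraries. Csf1 (chr3:107741048-107760469) was next, at 7.57 FPKM (5.90 to 12.7). It lay below Csf1r in 34 of 34 libraries and above Tgfbr1 (chr4:47353222-47414926, median 4.20, range 0.941 to 5.50) in 34 of 34. Tgfb1 (chr7:25687002-25705077) had a median of 3.29 FPKM (2.19 to 5.57) and Spi1 (chr2:91082374-91115759) one of 2.92 (1.51 to 6.05), and these neighbours overlapped, Tgfbr1 exceeding Tgfb1 in 24 of 34 libraries and Tgfb1 exceeding Spi1 in 23 of 34. Irf8 (chr8:120736358-120756694) ran lower at 1.79 FPKM (1.24 to 3.07), below Spi1 in every one of the 34. Runx1 (chr16:92601466-92826074) was close to undetected, at 0.160 FPKM (0.0911 to 0.412) and 16 to 55 reads per library, and the antisense gene Gm26626 lies within its span. Csf1r rested on 884 to 2887 reads per library, Il34 on 586 to 1510 and Csf1 on 454 to 1172, but Spi1 on only 35 to 168 and Irf8 on 68 to 181.

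Csf1r fell in the cortex of both irradiated and transplanted groups, and its mean was lowest in GFP-BM CON, the transplanted group without PLX3397. In WT CON cortex its levels were 20.1, 19.1 and 20.7 FPKM. In GFP-BM CON cortex they were 10.8, 12.2, 11.7 and 12.9 FPKM, and in GFP-BM REPOP cortex 16.1, 13.9, 15.5 and 15.1. The 3 groups did not overlap anywhere: every WT CON library lay above every GFP-BM REPOP library, and every GFP-BM REPOP library above every GFP-BM CON library. Group means were 20.0 ± 0.802 (SD, n = 3), 11.9 ± 0.85 (n = 4) and 15.2 ± 0.934 FPKM (n = 4). GFP-BM CON differed from WT CON by -40.3% (log2 fold change -0.74 on the log2(FPKM + 0.1) scale, SE 0.07, adjusted p = 0.0022 by limma). Of 14710 genes tested in cortex, Csf1r ranked 1 by p-value in this comparison. GFP-BM REPOP differed from WT CON by -24.0% (-0.40, SE 0.07, adjusted p = 0.021; rank 58). GFP-BM REPOP exceeded GFP-BM CON by 0.35 (SE 0.06), which did not pass (adjusted p = 0.089; rank 21). In these cortex comparisons 1 of the 8 genes tested passed against WT CON, Csf1r both times, beside 0.320% of all genes for GFP-BM CON and 0.734% for GFP-BM REPOP, and 0 of 8 passed between the transplanted groups by limma, beside 0.0476% of all genes. The comparisons share libraries and are not independent of each other.

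**Figure D1:**
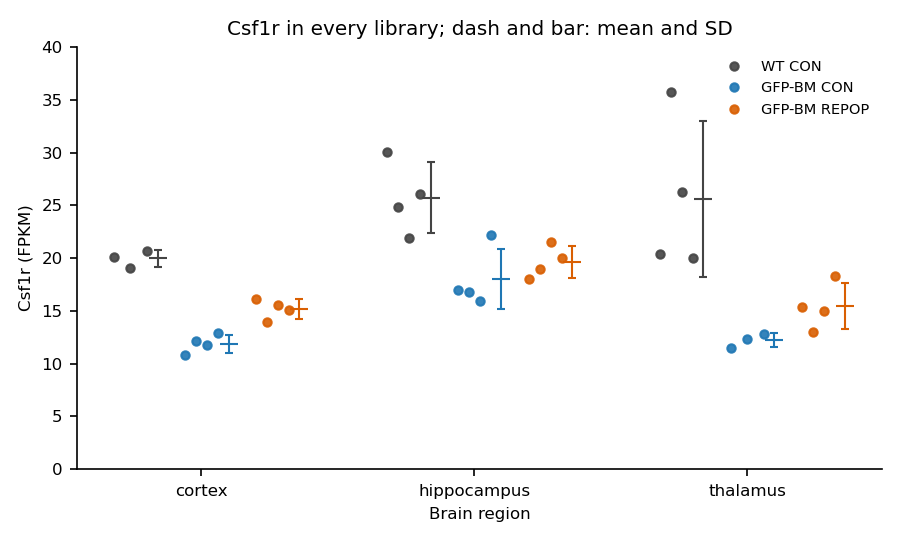
Csf1r level (FPKM, y axis) in each of the 34 libraries by brain region (x axis) and treatment group; points are libraries, and the dash and bar beside them are the mean and SD. In cortex the groups form separate bands around 20.0 (WT CON), 15.2 (GFP-BM REPOP) and 11.9 FPKM (GFP-BM CON), and the other regions keep that order of means.

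Hippocampus and thalamus showed the same order of group means, with wider spread and no passing test in the main fit of each region. Some alternative fits of all libraries did pass and are given in the closing section. Hippocampal Csf1r was 30.1, 24.8, 21.9 and 26.1 FPKM in WT CON. It was 17.0, 16.8, 16.0 and 22.2 FPKM in GFP-BM CON and 18, 19.0, 21.5 and 20.0 in GFP-BM REPOP. All 4 GFP-BM REPOP libraries lay below all 4 WT CON libraries, while GFP-BM CON replicate 4, at 22.2, lay just above the lowest WT CON library. The log2 fold change was -0.52 for GFP-BM CON (SE 0.13, adjusted p = 0.072) and -0.38 for GFP-BM REPOP (SE 0.13, adjusted p = 0.42) against WT CON. In thalamus Csf1r was 20.4, 35.8, 26.3 and 20.0 FPKM in WT CON. It was 11.5, 12.4 and 12.8 FPKM in GFP-BM CON and 15.4, 13, 15 and 18.3 in GFP-BM REPOP. The 3 thalamic groups were again fully separate. GFP-BM CON stood at 0.493 of the WT CON level (log2 fold change -1.02, SE 0.19, adjusted p = 0.058) and GFP-BM REPOP at 0.617 (-0.70, SE 0.18, adjusted p = 0.072). Without WT CON replicate 1 both thalamic differences from WT CON passed, and without GFP-BM CON replicate 4 or WT CON replicate 3 the hippocampal difference of GFP-BM CON did. GFP-BM REPOP was above GFP-BM CON by 0.13 in hippocampus (SE 0.13, adjusted p = 0.67) and by 0.32 in thalamus (SE 0.19, adjusted p = 1). Of the 8 genes, 0 passed in any hippocampal or thalamic comparison in these main limma fits. The background of all genes called was 0.0136%, 0% and 0.0272% in hippocampus and 0.836%, 0% and 0% in thalamus. These shares are for WT CON against GFP-BM REPOP, for WT CON against GFP-BM CON and for the transplanted groups against each other. Across all 72 tests of the 8 genes in the 3 regions, 2 passed, 14 had an unadjusted p under 0.05, and the smallest adjusted p of a gene other than Csf1r was 0.16. The size of the Csf1r difference was tested between regions as well, and 0 of 9 such contrasts passed, beside 0%, 0.0272%, 0.0340% or 0.177% of all genes. The nearest was GFP-BM CON against WT CON, larger in thalamus than in hippocampus by 0.50 (SE 0.20, unadjusted p = 0.019, adjusted p = 1).

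Csf1r followed the GC measure of the libraries. With region means taken out, its log2 level and the GC measure had a Pearson correlation of 0.84 over the 34 libraries, which share treatment groups and animals. In cortex the GC measure was 0.75 to 1.24 in WT CON, 0.43 to 0.58 in GFP-BM CON and 0.41 to 0.99 in GFP-BM REPOP, so it moved with the groups. Correcting every library for GC content and length left the cortex differences at -0.74 (adjusted p = 0.0013) and -0.39 (adjusted p = 0.017) against WT CON. It reduced those in hippocampus to -0.41 and -0.27 and those in thalamus to -0.89 and -0.58, for GFP-BM CON and GFP-BM REPOP. Leaving out the 2 WT CON libraries that stood apart gave -0.44 and -0.31 in hippocampus and -0.85 and -0.52 in thalamus. In cortex the GFP-BM CON call was made in all 11 fits that left out 1 library, whereas that of GFP-BM REPOP was lost in 4 of the 11, without WT CON replicate 1 or 3 or without GFP-BM REPOP replicate 3 or 4 (adjusted p 0.054 to 0.087). It was also lost when only the 2 groups compared were fitted (adjusted p = 0.054), and both calls were lost when all 9 groups shared 1 estimate of the spread (adjusted p = 0.11 for GFP-BM CON and 1 for GFP-BM REPOP). Leaving out GFP-BM REPOP replicate 2 made the transplanted groups differ in cortex (0.39, adjusted p = 0.04).

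**Figure D2:**
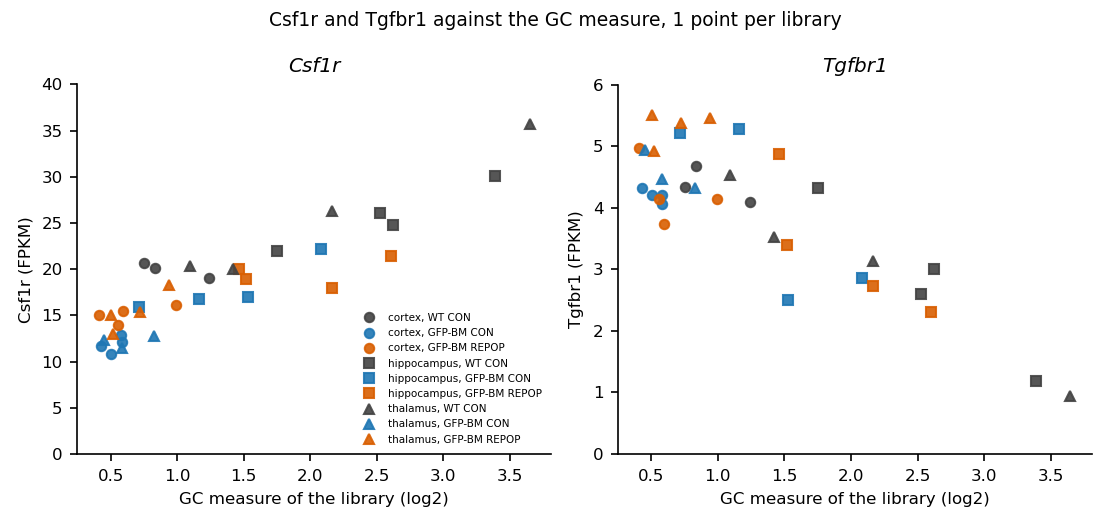
Csf1r (left) and Tgfbr1 (right) levels in FPKM (y axes) against the GC measure of each library (log2, x axes); each point is 1 library, shape gives the region and colour the treatment. Csf1r rises with the GC measure (correlation 0.84 with region means removed) and Tgfbr1 falls (-0.90), and the points with the highest GC measure are WT CON libraries.

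The difference in Csf1r was then set against the myeloid content of each library. As a reference, the mean log2 level of 13 general myeloid genes was used, genes such as Aif1, Tyrobp, Ctss and the C1q chains that microglia and monocyte-derived macrophages both express. For that reference, GFP-BM REPOP minus WT CON was 0.01 in cortex, 0.06 in hippocampus and -0.03 in thalamus, GFP-BM CON minus WT CON was -0.16, 0.12 and -0.18, and GFP-BM REPOP minus GFP-BM CON was 0.18, -0.06 and 0.15. The smallest two-sided exact permutation p was 0.029, for the last of these in cortex, where Csf1r differed by 0.35, and GFP-BM CON cortex libraries all had a lower reference than WT CON (p = 0.057, the smallest that 3 against 4 allows). Relative to it, Csf1r was 1.21, 1.25 and 1.29 log2 units up in WT CON cortex, 0.53, 0.71, 0.70 and 0.74 in GFP-BM CON and 0.78, 0.82, 1.00 and 0.76 in GFP-BM REPOP. WT CON thus lay apart from both other groups in cortex, and the same held in hippocampus, where WT CON libraries were at 1.32 to 1.52, GFP-BM CON at 0.66 to 0.85 and GFP-BM REPOP at 0.54 to 1.21. In thalamus the ranges were 1.05 to 1.54, 0.35 to 0.46 and 0.39 to 0.74. Relative to the reference, Csf1r in GFP-BM CON minus WT CON was -0.58 in cortex, -0.63 in hippocampus and -0.84 in thalamus, and in GFP-BM REPOP minus WT CON it was -0.41, -0.44 and -0.67. The two-sided exact permutation p was 0.029 where 4 libraries were compared with 4 and 0.057 where 3 were compared with 4, in both cases the smallest the design allows. None of the 54 comparisons in this family of 6 genes passed after adjustment (adjusted p = 0.28 for each of these 6). The group sizes set that limit. Csf1r was not the only gene to separate in this way. In GFP-BM CON against WT CON cortex, Csf2ra (0.47), Runx1 (0.30) and Tgfbr1 (0.11) did so upward (exact permutation p = 0.057 each). Thalamic Tgfbr1 did so in GFP-BM REPOP against WT CON (1.01, exact permutation p = 0.029). Levels relative to the reference were not corrected for GC content. Gene by gene, all 12 reference genes tested (Ptprc was under the filter) had a higher log2 fold change than Csf1r in GFP-BM CON against WT CON in all 3 regions, the reference genes running from -0.47 to 0.05 in cortex, -0.15 to 0.15 in hippocampus and -0.44 to 0.01 in thalamus. Against WT CON, GFP-BM REPOP had 1 reference gene lower than Csf1r in cortex and hippocampus and 0 in thalamus. The exception was Itgam, which encodes the integrin CD11b and was picked out after its values were seen: it fell by 0.65 in cortex (adjusted p = 0.046) and by 0.58 in thalamus (adjusted p = 0.048), where Csf1r stood lower still, and was at -0.69 in hippocampus without passing.

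**Figure D3:**
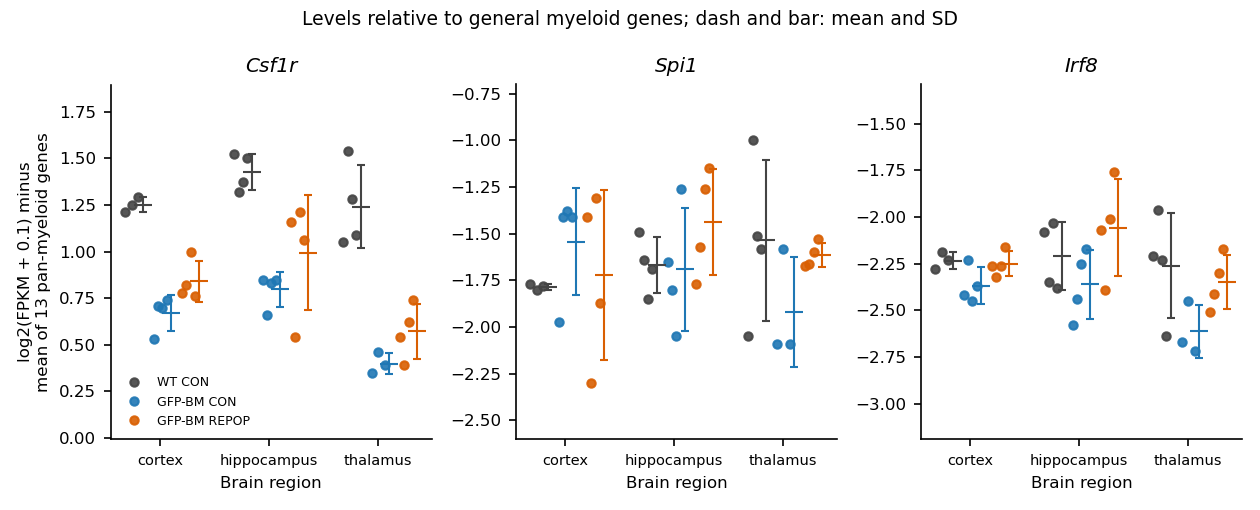
Log2(FPKM + 0.1) of Csf1r, Spi1 and Irf8 minus the mean of 13 general myeloid genes (y axes, same span in each panel) by region and treatment; points are libraries, dash and bar are mean and SD. WT CON libraries sit above both other groups for Csf1r in all 3 regions, and the groups mix for Spi1 and Irf8.

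The genes whose levels ran most closely with Csf1r, by Pearson correlation over the 34 libraries with region means removed, were Slco2b1 (0.89), Vsir (0.88) and Cx3cr1 (0.87). Cx3cr1 encodes the fractalkine receptor of microglia, Slco2b1 an organic anion transporter and Vsir an immune checkpoint protein. Csf1r itself correlated less with the general myeloid mean (0.45) and the homeostatic microglia mean (0.31) than with the GC measure, and these figures describe these libraries only.

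Neither ligand gene passed in any comparison of treatments. Cortical Il34, the neuronal ligand, was 31.6, 30.8 and 30.5 FPKM in WT CON, 33.2, 32.4, 31.9 and 32.1 in GFP-BM CON and 29.9, 29.6, 33.4 and 33.0 in GFP-BM REPOP. The GFP-BM CON libraries all lay above the WT CON libraries, but by only 0.06 (SE 0.05, adjusted p = 0.58), and GFP-BM REPOP spanned both. In hippocampus and thalamus Il34 had a lower mean in both transplanted groups, with log2 fold changes of -0.25 to -0.34 and adjusted p from 0.3 to 0.58 and overlapping groups. Its thalamic levels were 23.3, 29.9, 23.6 and 14.7 FPKM in WT CON, 17.1, 18.2 and 17.2 in GFP-BM CON and 17.0, 17.4, 18.8 and 21.3 in GFP-BM REPOP, so the wide WT CON group enclosed both others. Overlapping antisense genes (Gm15894 and Gm15895) leave Il34 counts uncertain where strand was not used.

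Cortical Csf1 varied little, at 6.04, 6.64 and 6.10 FPKM in WT CON, 6.30, 6.44, 6.07 and 6.09 in GFP-BM CON and 6.46, 5.90, 6.07 and 6.41 in GFP-BM REPOP. Its log2 fold changes in cortex were all within 0.01 of 0, each with an SE of 0.06. Hippocampal Csf1 scattered more, from 7.30 to 11.1 FPKM in WT CON, 8.18 to 12.7 in GFP-BM CON and 6.67 to 10.5 in GFP-BM REPOP, and the largest difference was -0.35, GFP-BM REPOP minus GFP-BM CON (SE 0.20, adjusted p = 0.49). In thalamus it ranged from 7.27 to 9.49 FPKM across both transplanted groups and from 7.63 to 11.3 in WT CON. The genes most like Csf1 were Micall1 (0.86), Kif1c (0.83) and Cat (0.82), and those most like Il34 were Snn (0.82), Fam131b (0.80) and Pfkp (0.77).

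The balance of the ligand genes was followed as a ratio. The geometric mean of the Il34 to Csf1 ratio of FPKM values was 4.89 in WT CON, 5.14 in GFP-BM CON and 5.0 in GFP-BM REPOP cortex. It was 3.69, 2.72 and 3.55 in hippocampus and 2.52, 2.2 and 2.26 in thalamus, in the same order. None of the 9 treatment differences in this ratio passed (two-sided exact permutation test, smallest p = 0.11, adjusted p = 0.64). Untreated thalamus, at 1.79 to 3.02, did not reach the untreated cortex range of 4.58 to 5.16, and untreated hippocampus, at 2.45 to 4.64, overlapped both.

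**Figure D4:**
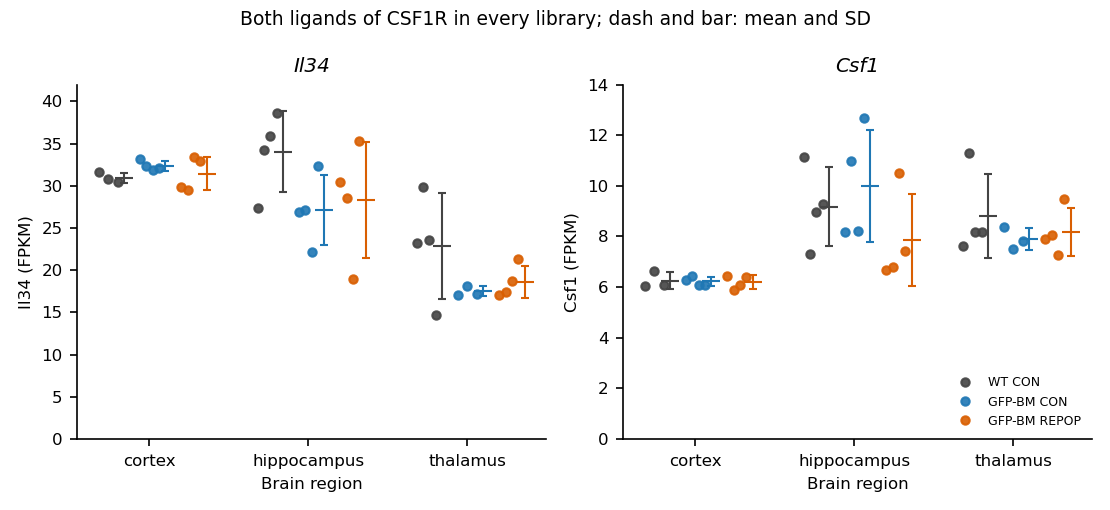
Il34 (left) and Csf1 (right) in FPKM (y axes, from 0) by brain region and treatment; points are libraries, dash and bar are mean and SD. Treatment groups overlap for Csf1 in every region, while thalamus is the lowest region for Il34 and cortex the lowest for Csf1.

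Regions were compared within WT CON, in a fit of the 9 groups blocked at random on the animal, and the ligand genes differed in opposite ways. When only the WT CON libraries were fitted, 0 of 8 genes passed for each pair of regions, beside 6.55%, 4.60% and 2.20% of all genes for cortex against hippocampus, cortex against thalamus and hippocampus against thalamus. Csf1 was lower in cortex (6.26 ± 0.332 FPKM, n = 3) than in hippocampus (9.17 ± 1.57, n = 4) (log2 difference -0.53, SE 0.16, adjusted p = 0.011). It was also lower in cortex than in thalamus (8.82 ± 1.67, n = 4) (-0.47, SE 0.16, adjusted p = 0.027), and in both cases the cortex libraries did not overlap the others. Il34 was higher in cortex (31.0 ± 0.563 FPKM) than in thalamus (22.9 ± 6.27) by 0.48 (SE 0.18, adjusted p = 0.040), without overlap, and higher in hippocampus (34 ± 4.79) than in thalamus by 0.61 (SE 0.16, adjusted p = 0.011), with overlap. Tgfb1 was lower in cortex (2.57 to 3.32 FPKM) than in thalamus (3.47 to 5.57), without overlap (-0.49, SE 0.18, adjusted p = 0.040). Csf1r had the same trend in value, 20.0 FPKM in cortex against 25.7 in hippocampus and 25.6 in thalamus, but did not pass (adjusted p = 0.059 and 0.099). In all, 1 of 8 genes passed between cortex and hippocampus, 3 of 8 between cortex and thalamus and 1 of 8 between hippocampus and thalamus, beside 36.9%, 30.0% and 17.7% of all genes, so the regional counts were near or below the background. The GC measure was also higher in WT CON hippocampus (1.75 to 3.39) and thalamus (1.09 to 3.65) than in cortex (0.75 to 1.24), and with GC content and length corrected 0 of 8 genes passed between cortex and hippocampus and 2 of 8 between hippocampus and thalamus. Leaving out 1 library gave 1 to 3, 0 to 6 and 0 to 1 genes for the 3 pairs of regions. Cortex against thalamus gave 0 without cortex replicate 3, and hippocampus against thalamus gave 0 without thalamus replicate 4. The share of all genes called in those fits is not given here, so these counts have no background beside them.

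The transcription factor genes showed no passing difference. Irf8 in cortex was 1.70, 1.67 and 1.71 FPKM in WT CON, 1.32, 1.49, 1.24 and 1.40 in GFP-BM CON and 1.87, 1.48, 1.53 and 1.90 in GFP-BM REPOP. Every GFP-BM CON library lay below every WT CON library (-0.30, SE 0.13, adjusted p = 0.27), while GFP-BM REPOP lay on both sides of WT CON (-0.01, SE 0.13, adjusted p = 0.99). Thalamic Irf8 was 2.04, 3.07, 2.21 and 1.41 FPKM in WT CON, 1.33, 1.57 and 1.40 in GFP-BM CON and 1.76, 1.78, 1.90 and 2.35 in GFP-BM REPOP. GFP-BM REPOP exceeded GFP-BM CON there without overlap, by 0.41 (SE 0.23, adjusted p = 1), and GFP-BM CON differed from WT CON by -0.53 (SE 0.23, adjusted p = 0.23). In hippocampus it ranged from 1.67 to 2.39 FPKM in WT CON, 1.49 to 2.64 in GFP-BM CON and 1.84 to 2.74 in GFP-BM REPOP, and the groups mixed.

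Spi1 was noisier on fewer reads. Cortex held 2.46, 2.22 and 2.37 FPKM in WT CON, 1.83, 2.71, 2.70 and 2.82 in GFP-BM CON and 3.47, 1.51, 3.06 and 2.35 in GFP-BM REPOP, and both cortical log2 fold changes against WT CON were 0.08 (SE 0.24). In hippocampus the range was 2.26 to 3.65 FPKM in WT CON and 2.08 to 5.08 over both transplanted groups. In thalamus Spi1 was 2.28, 6.05, 3.72 and 3.07 FPKM in WT CON, 2.04, 2.94 and 2.21 in GFP-BM CON and 3.24, 3.07, 3.15 and 3.73 in GFP-BM REPOP. Its largest differences were here, -0.57 for GFP-BM CON against WT CON (SE 0.27, adjusted p = 0.26) and 0.46 for GFP-BM REPOP against GFP-BM CON (SE 0.27, adjusted p = 1), the second without overlap.

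Both factors ran with the general myeloid genes. The correlation with the general myeloid mean was 0.69 for Irf8 and 0.67 for Spi1, against 0.45 for Csf1r, and the genes most like Spi1 were the complement chains C1qc (0.78), C1qa (0.77) and C1qb (0.74). Those most like Irf8 were Nckap1l (0.82), a haematopoietic actin regulator, Unc93b1 (0.81), which carries Toll-like receptors to endosomes, and the protease gene Ctss (0.78). C1qa, C1qb, C1qc and Ctss are themselves in the myeloid reference list. Relative to that mean, 0 of 9 comparisons of Irf8 reached an exact permutation p below 0.11, and for Spi1 the smallest was also 0.11. Irf8 and Spi1 also correlated with the GC measure (0.49 and 0.48), and their correlations with the homeostatic microglia mean were -0.12 and -0.07. Irf8 and Csf1r had a correlation of 0.65 with each other. In GENCODE, Irf8 lies within the read-through gene Gm20388, and reads of the 2 cannot be told apart.

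Runx1 stayed at trace level in every group. It was 0.0974, 0.112 and 0.167 FPKM in WT CON cortex, 0.138 to 0.157 in GFP-BM CON and 0.149 to 0.289 in GFP-BM REPOP. The single highest library was GFP-BM REPOP hippocampus replicate 1 at 0.412, where the other 3 of the group were at 0.139 to 0.218. In thalamus it spanned 0.160 to 0.231 FPKM in WT CON, 0.147 to 0.238 in GFP-BM CON and 0.0977 to 0.278 in GFP-BM REPOP, so no group stood apart there.

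Groups without overlap were counted over the 8 genes and over all genes tested. In cortex they were found for 1 gene (Csf1r) in GFP-BM REPOP against WT CON beside 9.48% of all genes, for 3 (Il34, Csf1r and Irf8) in GFP-BM CON against WT CON beside 16.0%, and for 1 (Csf1r) in GFP-BM REPOP against GFP-BM CON beside 3.09%. In hippocampus they were found for 1 (Csf1r) beside 4.00%, for 0 of the 8 beside 13.7% and for 0 of the 8 beside 6.88%, in the same order. In thalamus they were found for 2 (Csf1r and Tgfbr1) beside 18.8%, for 1 (Csf1r) beside 23.1%, and for 3 (Csf1r, Spi1 and Irf8) beside 4.56%. Between untreated regions they were found for 2 of 8 genes beside 42.6%, 3 of 8 beside 36.2% and 0 of 8 beside 9.90%, for cortex against hippocampus, cortex against thalamus and hippocampus against thalamus.

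**Figure D5:**
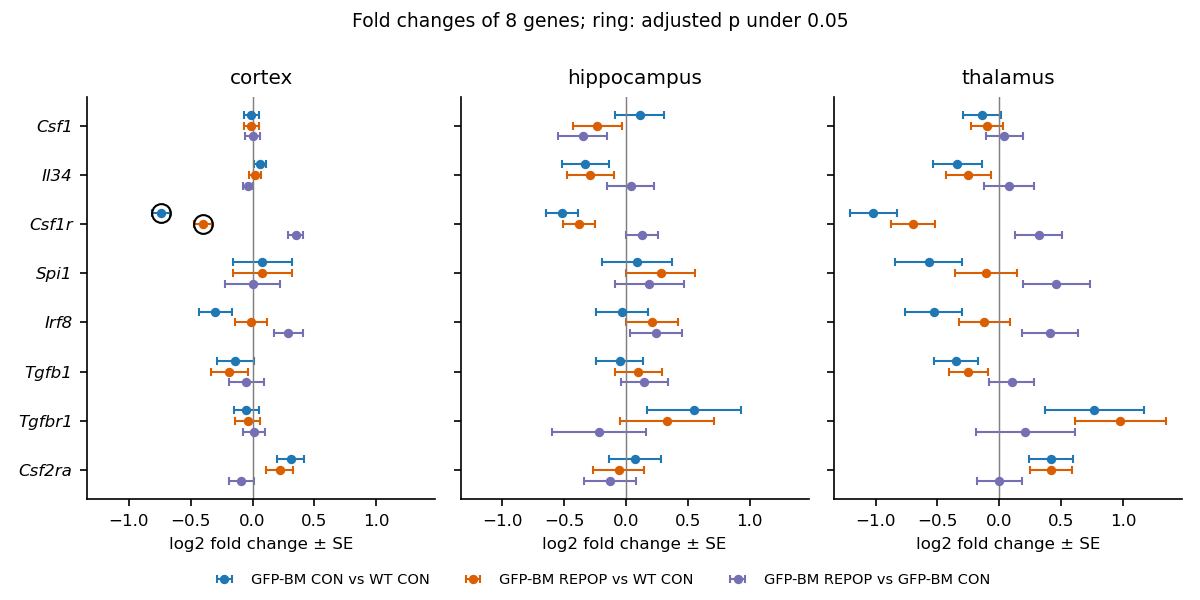
Log2 fold change ± SE (x axis) of the 8 genes tested (y axis) in cortex, hippocampus and thalamus for the 3 treatment comparisons (colours); a ring marks an adjusted p under 0.05. The 2 rings are both Csf1r in cortex, at -0.74 and -0.40 against WT CON, and the Tgfbr1 points of thalamus carry the widest bars.

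Of the TGF-β genes, the ligand gene Tgfb1 varied little. Its group means ran from 2.61 to 2.98 FPKM in cortex, 3.32 to 3.70 in hippocampus and 3.30 to 4.28 in thalamus, and its largest log2 fold change was -0.35, in thalamus between GFP-BM CON and WT CON (SE 0.18, adjusted p = 0.27). Libraries high in Tgfb1 tended to be high in general myeloid genes (0.60) and in the GC measure (0.63). The receptor gene Tgfbr1 behaved otherwise. Thalamic Tgfbr1 was 4.53, 0.941, 3.13 and 3.52 FPKM in WT CON, 4.46, 4.93 and 4.33 in GFP-BM CON and 5.37, 4.91, 5.50 and 5.45 in GFP-BM REPOP. All GFP-BM REPOP libraries lay above all WT CON libraries, at 1.97 times the level (log2 fold change 0.98, SE 0.37), without passing (adjusted p = 0.16). Tgfbr1 followed the GC measure inversely, with a correlation of -0.90 over the 34 libraries, and its lowest value belonged to the thalamus library with the highest GC measure. With GC content and length corrected the thalamic difference was 0.04 (adjusted p = 0.90). Tgfbr1 transcripts are 41.0% GC, the lowest of the 9 genes, and the genes most like Tgfbr1 were gene ID 106740, Jak2 and Bmi1 (0.96 each). Cortical Tgfbr1 was level across groups, at 4.37 ± 0.290, 4.19 ± 0.109 and 4.25 ± 0.520 FPKM.

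Csf2ra had higher means in transplanted mice than in WT CON in cortex and thalamus, without passing. Cortex held 17.5, 14.5 and 19.9 FPKM in WT CON, 25.2, 21.3, 20.0 and 19.1 in GFP-BM CON and 19.2, 21.2, 20.4 and 19.3 in GFP-BM REPOP. Thalamus held 18.9, 12.5, 10.6 and 15 FPKM in WT CON, 18.4, 21.5 and 16.3 in GFP-BM CON and 19.0, 19.9, 19.8 and 16.2 in GFP-BM REPOP. Each of these regions had 1 WT CON library within the range of the transplanted mice, so the groups overlapped. The log2 fold change against WT CON was 0.31 for GFP-BM CON in cortex (SE 0.11, adjusted p = 0.20) and 0.42 for both groups in thalamus (SE 0.17 and adjusted p = 0.17 for GFP-BM REPOP, SE 0.18 and adjusted p = 0.23 for GFP-BM CON). Csf2ra had a correlation of -0.62 with the GC measure, which was lower in the transplanted groups of cortex and thalamus by its medians, and with GC content and length corrected the differences were 0.35 for GFP-BM CON in cortex (adjusted p = 0.13) and, in thalamus, 0.67 for GFP-BM REPOP (adjusted p = 0.11) and 0.68 for GFP-BM CON (adjusted p = 0.16). Hippocampus, at 11.5 to 24.5 FPKM in WT CON, showed no such difference (-0.06 and 0.07, SE 0.21). The level of Csf2ra did not run with the myeloid genes: its correlation was -0.53 with their mean and -0.63 with Csf1r, and the genes most like it were the RNA helicase gene Ddx17 (0.85), Metap1d (0.83) and the poly(A)-binding protein gene Pabpn1 (0.83). The genes of the β chains that the receptor needs for signalling, Csf2rb and Csf2rb2, were both under the filter, with medians of 0.311 and 0.277 FPKM. Csf2, the gene of the ligand, was not in the table used here.

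The rest of each pathway was mostly level. Of 24 genes of the CSF1R signal chain 23 were tested, and 1 passed in 1 of the 9 treatment comparisons: Mapk3, which encodes the kinase ERK1, rose from 69.0 ± 1.70 to 82.4 ± 2.73 FPKM between WT CON and GFP-BM CON cortex (log2 fold change 0.25, SE 0.04, adjusted p = 0.042), beside 0.320% of all genes in that comparison. In the same comparison Mapk3 was at -0.41 in hippocampus, without overlap (adjusted p = 0.089), and at -0.26 in thalamus (adjusted p = 0.33). With GC content and length corrected, these were -0.18 (adjusted p = 0.49) and 0.01 (adjusted p = 0.97), and the cortex difference was 0.29 (adjusted p = 0.039). For GFP-BM REPOP against WT CON cortex, Mapk3 was at 0.22 (adjusted p = 0.052) and, with that correction, at 0.24 (adjusted p = 0.048). The median of the chain was within 0.10 of 0 in 8 of the comparisons and -0.20 in thalamus for GFP-BM CON against WT CON, where the median of all genes was -0.06. Of 24 further myeloid transcription factor genes 23 were tested, and none passed in any of the 9. Their median was -0.19 in cortex and -0.25 in thalamus for GFP-BM CON against WT CON, beside 0.02 and -0.06 for all genes, with 16 and 18 of the 23 below 0. For GFP-BM REPOP against WT CON it was -0.08 and -0.13, beside 0.02 and -0.05, with 19 and 15 below 0. In hippocampus it was -0.15 for GFP-BM CON and 0.08 for GFP-BM REPOP, with 14 and 11 below 0. The most abundant of them, Mef2c and Id2, stood at 104 and 82.2 FPKM in GFP-BM CON cortex and 102 and 83.3 in WT CON cortex. Outside cortex Mef2c had higher means in both transplanted groups, with overlap and without passing. Its log2 fold change against WT CON was 0.66 for GFP-BM CON and 1.34 for GFP-BM REPOP in hippocampus, and 0.98 and 0.94 in thalamus. For Id2 these were -0.12 and 0.46 in hippocampus and -0.03 and -0.10 in thalamus.

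Of 23 further TGF-β pathway genes 22 were tested, and 1 passed once. Itgb8, which encodes a chain of the integrin that releases active TGF-β, rose in thalamus from 2.08 ± 1.53 FPKM in WT CON to 8.18 ± 1.65 in GFP-BM REPOP (log2 fold change 2.19, SE 0.43, adjusted p = 0.049). In that comparison 0.836% of all genes passed. With GC content and length corrected, the Itgb8 difference was 1.01 and did not pass (adjusted p = 0.076). Under the same correction Itgb8 passed in hippocampus for GFP-BM CON against WT CON (0.92, adjusted p = 0.047). The median of that list lay between -0.19 and 0.02 over the 9 comparisons. None of the 5 genes tested of the GM-CSF receptor family passed. Ptprz1, which encodes another receptor of IL-34, was the only gene tested of a list of 2 and did not pass, although in thalamus it stood at 13.4 ± 8.09 FPKM in WT CON and 28.6 ± 3.98 in GFP-BM CON without overlap (log2 fold change 1.40, SE 0.53, adjusted p = 0.20). The GC-corrected difference of Ptprz1 in that comparison was 0.70 (SE 0.28, adjusted p = 0.19). For GFP-BM REPOP against WT CON thalamus Ptprz1 was at 1.31, also without overlap (adjusted p = 0.16), and at 0.60 with the correction (adjusted p = 0.19). For GFP-BM CON against WT CON hippocampus it was at 1.52, with overlap (SE 0.42, adjusted p = 0.081), and at 0.86 with the correction (adjusted p = 0.064).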

How the data were processed

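RNA was measured in 34 libraries. Per the labels and the study's methods, the authors extracted total RNA (RNA integrity number of at least 7), sequenced paired reads of 150 bases on NovaSeq and HiSeq instruments, aligned them with STAR to mm10, counted them per gene with featureCounts and used edgeR and limma. The deposited values are FPKM, normalised for library size and gene length by the authors, and whether counting used strand is not given in the sources used here. For 100.0% of genes the FPKM steps gave whole reads, which served for depth and for the alternative by voom.

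Genes of at least 1 FPKM in at least 3 libraries were kept, and protein-coding and lncRNA genes were tested (14710). Values were taken as log2(FPKM + 0.1), which understates changes of low genes, and fitted by limma 3.58.1 with an intensity trend in R 4.3.3, in 1 fit per region for treatments and in 1 fit of 9 groups, blocked at random on the animal, for regions and for differences between regions. Tests were two-sided, with Benjamini-Hochberg adjustment over all genes tested, and a gene passed at an adjusted p under 0.05. Single ratios were compared by exact permutation tests over libraries (scipy 1.17.1), adjusted over 54 comparisons with the general myeloid mean and 9 of the ligand ratio. Nothing in the labels says that libraries of a group were prepared apart, and p-values measure the spread between these libraries, each from a different animal within its group.

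The 9 genes and every list were chosen with earlier results of these data known. Named were all 9 genes, the 3 genes most correlated with each, and from each pathway list up to 4 genes that passed or, failing that, up to 2 of the highest mean FPKM; genes outside this rule are named as such or as markers. GC content came from GENCODE transcripts, where 94.3% of tested genes had a value. The script that fits limma was tested on simulated data. Alternatives covered the pseudocount, the filter, scaling, the samples and terms of the fit, GC content and length, voom, and leaving out each library. Coordinates are those of RefSeq on GRCm38.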

Additional observations from a re-analysis of the deposited data

Results flagged for a closer look

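Within groups of 4 libraries, 3 of the 63 groups of single-gene levels held a library that stood apart from its group by Dixon's criterion at the 95% level, where chance alone gives about 1 in 20, or 3.15. Csf1 in WT CON thalamus replicate 2 was 11.3 FPKM, against 7.63 to 8.19 in the other 3 libraries, and this is the library with the highest GC measure (3.65). Csf1r in GFP-BM CON hippocampus replicate 4 was 22.2 FPKM, against 16.0 to 17.0 in the others of that group. Without that library the Csf1r difference between GFP-BM CON and WT CON hippocampus passed. Spi1 in GFP-BM CON cortex replicate 1 was 1.83 FPKM, the lowest of its group by a wide gap, against 2.70 to 2.82, on 59 to 78 reads in the group.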

How the results depend on the processing

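In every alternative run Csf1r kept its direction in all 9 treatment comparisons. Of the calls against WT CON in cortex, that of GFP-BM REPOP became 0 genes with only the 2 groups compared, and those of GFP-BM REPOP and GFP-BM CON both became 0 with all 9 groups in 1 fit and with the replicate block. The titles' replicate numbers do not pair animals of different treatments: over 32 pairs the deviations correlated from -0.43 to 0.49 (median -0.08), with 5 over 0.1, and with the block Csf1r had adjusted p of 0.080 and 0.058. With all 9 groups in 1 fit 1 gene passed, Csf1r, in GFP-BM CON against WT CON hippocampus and in both comparisons of thalamus with WT CON. That fit called many genes: of 14710 tested, 2849 for GFP-BM CON in hippocampus, and 1347 for GFP-BM CON and 1954 for GFP-BM REPOP in thalamus. Quantile normalization gave 1 in both of these thalamic comparisons, and a pseudocount of 1 gave 1 for GFP-BM CON. The shares of all genes called under these settings are not given here, so these counts have no background beside them. Over all alternatives run, the number of all genes called in thalamus ran from 0 to 1347 for GFP-BM CON and from 11 to 1954 for GFP-BM REPOP.

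Leaving out 1 library at a time gave 0 to 1 gene for GFP-BM REPOP against WT CON cortex, 1 to 1 for GFP-BM CON, and 0 to 1 between the transplanted groups (1 without GFP-BM REPOP replicate 2). It gave 0 to 1 for GFP-BM CON against WT CON hippocampus (1 without GFP-BM CON replicate 4 or WT CON replicate 3). In thalamus it gave 0 to 2 for GFP-BM REPOP (Csf1r and Csf2ra without WT CON replicate 1) and 0 to 1 for GFP-BM CON (again without WT CON replicate 1). Between untreated regions the ranges were 1 to 3 for cortex and hippocampus and 0 to 6 for cortex and thalamus (0 without cortex replicate 3, 6 without thalamus replicate 1). For hippocampus and thalamus the range was 0 to 1 (0 without thalamus replicate 4). The shares of all genes in these fits are not given. Over all alternatives run, the number of all genes called ran from 963 to 8423, 676 to 6365 and 323 to 7447 for these pairs.

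Regional counts moved more. Cortex against hippocampus gave 0 genes with GC content and length corrected, 4 averaged over the 3 treatment groups, 2 with median-ratio scaling, 2 with quantile normalization and 0 with only WT CON libraries, beside 36.7%, 57.3%, 36.9%, 44.9% and 6.55% of all genes. Cortex against thalamus gave 0 with only WT CON libraries (4.60% of all genes), and hippocampus against thalamus 2 with GC content and length corrected, 2 averaged over treatments and 0 with only WT CON libraries (25.4%, 50.6% and 2.20%). Tgfbr1 between cortex and hippocampus turned from 0.77 to -0.39 with GC content and length corrected. Counts over all genes moved too, from 47 to between 0 and 230 for GFP-BM CON and from 108 to between 27 and 242 for GFP-BM REPOP against WT CON cortex, from 0 to as many as 2849 and 1347 for GFP-BM CON in hippocampus and thalamus with all 9 groups in 1 fit, and from 123 to between 11 and 1954 for GFP-BM REPOP in thalamus. The causes were not tested. For the ligand ratio and the comparisons with the myeloid mean the count stayed at 0, which the group sizes nearly fix and which says nothing of stability. The planned edgeR test was not run, because the deposited values are FPKM, and voom on recovered reads was chosen after seeing the data, as was leaving out the libraries that stood apart on the GC measure. Spi1, Irf8 and Runx1 rest on few reads, which limits what could be detected.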
